A study of Mus musculus with 8 samples.

Results

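The proteasome genes of cultured lung group 2 innate lymphoid cells (ILC2s) were taken as all protein-coding rows of the deposited expression table whose symbol begins with Psma to Psmg and a digit, 50 of 22075 genes. They comprise the subunits of the 20S core (8 of the alpha ring, 4 structural and 3 constitutive catalytic subunits of the beta ring), 17 subunits of the 19S cap, 7 assembly chaperones and 3 further activators or inhibitors. The 5 immunoproteasome genes Psmb8, Psmb9, Psmb10, Psme1 and Psme2 were kept apart, as were the thymus subunit Psmb11 and 2 other matches of the pattern, Psme2b and Psmc3ip. Psmc3ip is named for its binding to Psmc3 and is not a subunit itself. Of the 50 genes, 48 had at least 1 FPKM (a fragment count divided by gene length and library depth) in at least 2 libraries and were tested. The other two were Psmb11, listed at 0 except for 0.0587 FPKM in 1 STAT3-KO control library, and Psma8, an alpha subunit known from testis, with 0.906 and 0.964 FPKM in the STAT3-KO IL-33 libraries and 0 elsewhere.

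RNA came from ILC2s of C57BL/6 mouse lung, taken after a short exposure to the allergen papain and expanded with IL-2 at 10 ng/ml over about 5 days. The 4 groups of 2 libraries were STAT3-KO (VavicreStat3fl/fl, floxed Stat3 with a Cre driven by Vav) with IL-33, WT (Stat3fl/fl, floxed Stat3 without Cre) with IL-33, STAT3-KO control and WT control. IL-33, an alarmin that activates ILC2s, was given at 10 ng/ml for 2 further days, and the medium of the controls in those days is not described. Vav drives expression in blood cells in general, and since only the STAT3-KO groups carry Cre, loss of STAT3 and presence of Cre cannot be told apart. The labels do not say whether libraries of a group came from separate mice or cultures, so p-values measure the spread between these libraries, which may be technical.

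The proteasome degrades proteins tagged with ubiquitin. Its barrel-shaped 20S core holds the proteolytic sites in the beta rings, and the 19S cap, with a ring of ATPases and a set of non-ATPase subunits, recognises, unfolds and feeds substrates. Interferon gamma induces alternative catalytic subunits, Psmb8, Psmb9 and Psmb10, which take the places of Psmb5, Psmb6 and Psmb7 in newly built particles, and the 11S activator of Psme1 and Psme2. The resulting immunoproteasome yields peptides well suited to MHC class I molecules, and lymphocytes carry it even at rest. Production of the constitutive subunits is known to be raised together by the transcription factor NRF1 (gene Nfe2l1) when proteasome capacity falls short.

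Depth lay between 15843685 and 19905817 reads per library, so that 3 reads are worth 0.151 to 0.189 FPKM where a gene is 1 kb long. Stat3 had 8.03 and 9.69 FPKM in STAT3-KO and 48.98 and 55.3 FPKM in WT libraries with IL-33, and 15.3 and 16.00 FPKM in STAT3-KO and 41.7 and 50.7 FPKM in WT controls, so that its level followed the labels. All 12 ILC2 markers averaged at least 1 FPKM in every group. They summed to 3247 to 3551 FPKM in STAT3-KO and 9131 to 9881 FPKM in WT libraries with IL-33, and to 2635 to 2679 FPKM in STAT3-KO and 2563 to 2738 FPKM in WT controls. In WT libraries with IL-33 the sum is mostly the cytokine genes Il5 and Il13, and the markers did not move together. With IL-33 in WT cells, Il5 went from 38.5 and 36.0 to 3602 and 3398 FPKM. Il13 went from 30.6 and 37.9 to 2021 and 2783 FPKM. Gata3 went down from 464 and 454 to 278 and 292 FPKM, and Il7r from 501 and 543 to 180 and 173 FPKM. With IL-33, markers other than these cytokines were also lower in STAT3-KO than in WT libraries. Thy1 had 2.56 and 2.37 FPKM in STAT3-KO and 31.7 and 38.0 FPKM in WT. Il1rl1 had 78.5 and 92.4 FPKM in STAT3-KO and 350 and 370 FPKM in WT. Klrg1 had 279 and 298 FPKM in STAT3-KO and 884 and 943 FPKM in WT. Gata3, Il7r, Il2ra and Ptprc were lower as well, Icos was higher, and Rora and Areg overlapped. The 6 T cell markers summed to 4.27 to 9.35 FPKM, with Cd8a and Cd8b1 at 0 in all groups but WT control. Of 5 listed mast cell and basophil markers only Cpa3 and Mcpt8 were in the table, and they moved in opposite directions with IL-33 in WT cells. With IL-33, Cpa3 had 7.52 and 7.49 FPKM in STAT3-KO and 34.6 and 41.8 FPKM in WT libraries. In controls it had 111 and 140.4 FPKM in STAT3-KO and 326 and 299 FPKM in WT. Mcpt8 had 0.246 and 0 FPKM in STAT3-KO and 92.8 and 113.5 FPKM in WT libraries with IL-33, and at most 0.126 FPKM in controls. The 4 NK markers summed to 0 to 0.438 FPKM in STAT3-KO and 2.07 to 2.61 FPKM in WT libraries with IL-33, and to 5.70 to 9.64 FPKM in STAT3-KO and 5.74 to 6.41 FPKM in WT controls. The 2 of 4 B cell markers in the table summed to 19.6 to 21.9 FPKM in STAT3-KO and 13.1 to 13.9 FPKM in WT libraries with IL-33, and to 3.26 to 4.13 FPKM in STAT3-KO and 7.92 to 8.15 FPKM in WT controls. Markers of macrophages and monocytes, dendritic cells, granulocytes and epithelium summed to at most 10.6 FPKM per list in any library, and those of stroma and endothelium to 15.2 to 26.5 FPKM. Single genes made up most of several sums: Cd3g for T cells, Cd79b for B cells and Pecam1 for stroma and endothelium. The NK sums were mostly Prf1, except in STAT3-KO IL-33 libraries, where Prf1 was 0. The NK markers Ncr1, Eomes and Klrb1c had at most 0.482 FPKM in any library. Their part in the results was not tested, and in these bulk samples fewer cells of a type and less RNA per cell cannot be told apart. The STAT3-KO IL-33 libraries differed from each other among proteasome genes, 41 of 48 being higher in replicate 1, with a median gap of 0.28 on the log2(FPKM + 1) scale against -0.01 over all tested genes. In STAT3-KO control 34 of 48 were higher in replicate 1, with a median gap of 0.11 against 0.00 over all tested genes. In WT the numbers higher in replicate 1 were 23 of 48 with IL-33 and 25 of 48 in control.

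With IL-33, 18 of the 31 standard core and cap subunits rose in STAT3-KO cells and 16 of 31 rose in WT cells, while the immunoproteasome genes fell or did not pass the test in WT cells and rose or did not pass it in STAT3-KO cells. In STAT3-KO cells 23 of the 48 tested genes rose with IL-33 and 0 fell (limma, Benjamini-Hochberg adjusted p under 0.05 over all tested genes), where 51% of all tested genes were called, 20.4% rising and 30.6% falling; at an unadjusted p under 0.05, 27 were higher and 0 lower. In WT cells 17 rose and 3 fell, where 36.1% of all tested genes were called, 14.5% rising and 21.6% falling. Among these 31 subunits of the 20S core and 19S cap, 0 fell in either genotype (limma, at an unadjusted p under 0.05, 0 lower in STAT3-KO and 1 lower in WT), with median differences of 0.51 in STAT3-KO and 0.40 in WT on the log2(FPKM + 1) scale. Over all tested genes the medians were -0.18 in STAT3-KO and -0.14 in WT. Of the 5 immunoproteasome genes 2 rose and 0 fell in STAT3-KO cells, and 0 rose and 2 fell in WT cells (limma, at an unadjusted p under 0.05 2 higher and 0 lower in STAT3-KO, 0 higher and 3 lower in WT), with median differences of 0.21 in STAT3-KO and -0.34 in WT. After median-of-ratios rescaling the share of rises among all called genes was 53.2% in place of 40.0% in STAT3-KO and 55.2% in place of 40.2% in WT, the medians over all genes moved to -0.01 in STAT3-KO and 0.00 in WT, and 32 proteasome genes rose in STAT3-KO and 24 in WT. With the gene-length trend removed the shares were 53.0% in STAT3-KO and 55.0% in WT. Libraries were also left out 1 at a time, and calls that were lost in such a fit or under another setting of the whole fit are given beside the values below. Leaving out replicate 2 of WT control, replicate 1 of WT IL-33 or replicate 2 of WT IL-33 brought the rises in WT to 10, 7 and 8, and the falls to 3, 1 and 1; leaving out replicate 1 of WT control gave 12 rises and 1 fall.

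**Figure D1:**
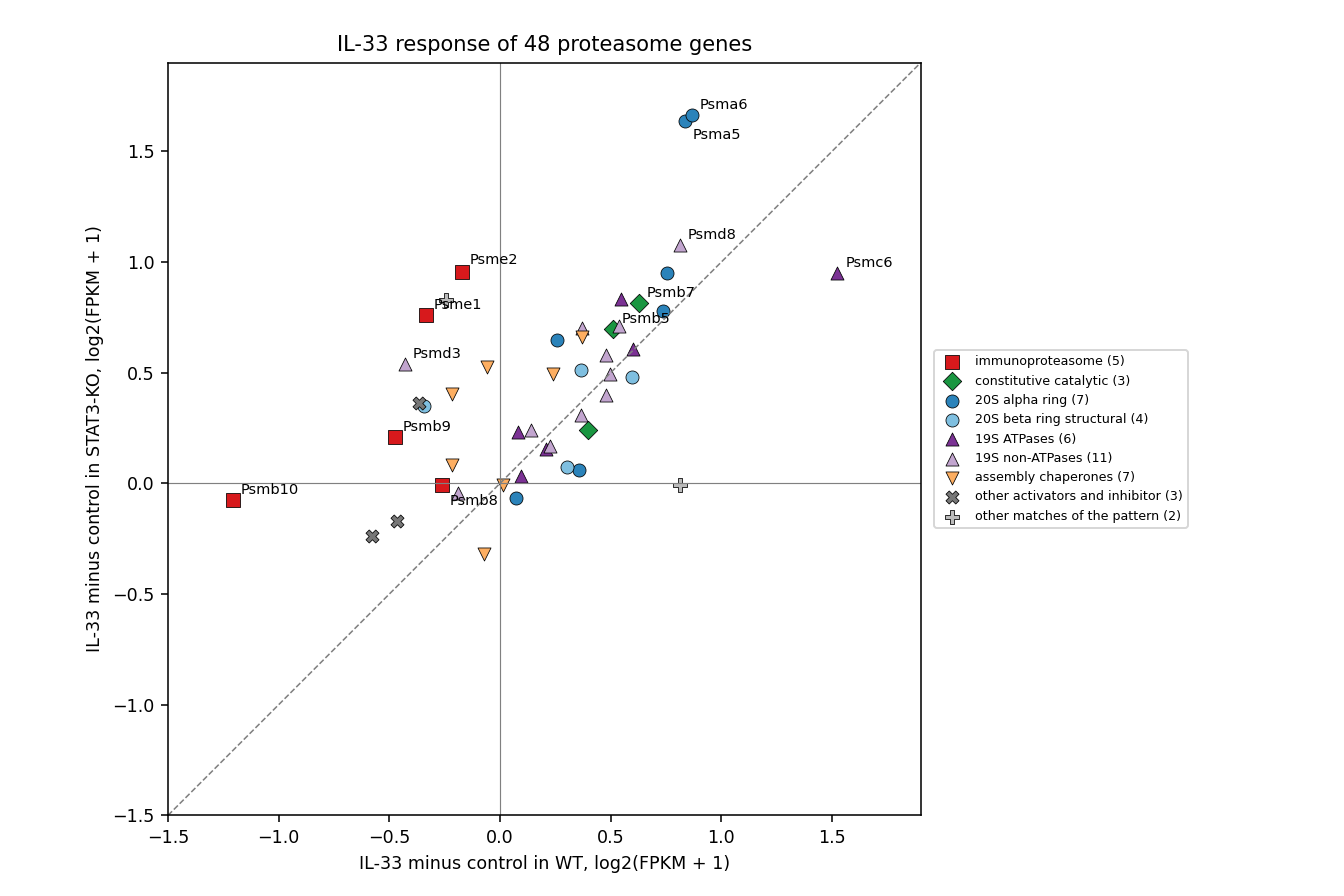
Difference between IL-33 and control on the log2(FPKM + 1) scale in STAT3-KO cells (vertical axis) and WT cells (horizontal axis) for the 48 tested genes, 1 symbol per gene and 1 shape and colour per role, with the dashed line marking equal differences. Psmb10, Psme1 and Psme2 lie left of 0 and far above the line, Psma5 and Psma6 at the top, and Psmc6 at the right, below the line.

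Between the genotypes in IL-33, 8 of the 48 genes were higher in STAT3-KO cells and 1 was lower, where 32.6% of all tested genes were called, 16.3% higher and 16.4% lower, so that the count of higher genes is near the background. The higher genes were Psma5, Psma6, Psmd3, Psmd10, Psmb9, Psme1, Psme2 and Psme2b, and the lower one Psmc6. The count rests on few libraries: it was 0 higher and 1 lower without replicate 2 of WT IL-33, 4 higher and 0 lower without replicate 1 of WT IL-33, 3 higher and 3 lower without replicate 1 of STAT3-KO IL-33, and 9 higher and 0 lower without replicate 2 of STAT3-KO IL-33. In control medium 0 of the 48 differed (limma), against 0.463% of all tested genes (0.253% higher and 0.21% lower), and at an unadjusted p under 0.05 the counts were 0 higher and 3 lower, the 3 being Psmb10, Psme1 and Psme2. The difference between the IL-33 responses, STAT3-KO minus WT, passed the test for 7 genes, all positive, where 15.1% of all tested genes were called, being positive for 6.72% and negative for 8.43% of all tested genes (44.4% of the calls were positive, and 33.8% after rescaling to TPM). These were Psmb9, Psmb10, Psme1 and Psme2, 4 of the 5 immunoproteasome genes, and Psme2b, Psma5 and Psmd3. The median of this difference was 1.10 over the 5 immunoproteasome genes, 0.10 over the 31 other core and cap subunits and -0.02 over all tested genes. Psme1 was called in each of the 8 fits that left out a library, in which the number of called genes was 1 to 6; it was 1 without either replicate of WT IL-33, 2 without replicate 1 of WT control (which also gave 1 negative call) or replicate 2 of STAT3-KO control, 3 without replicate 1 of STAT3-KO IL-33, and 4 without replicate 1 of STAT3-KO control.

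**Figure D2:**
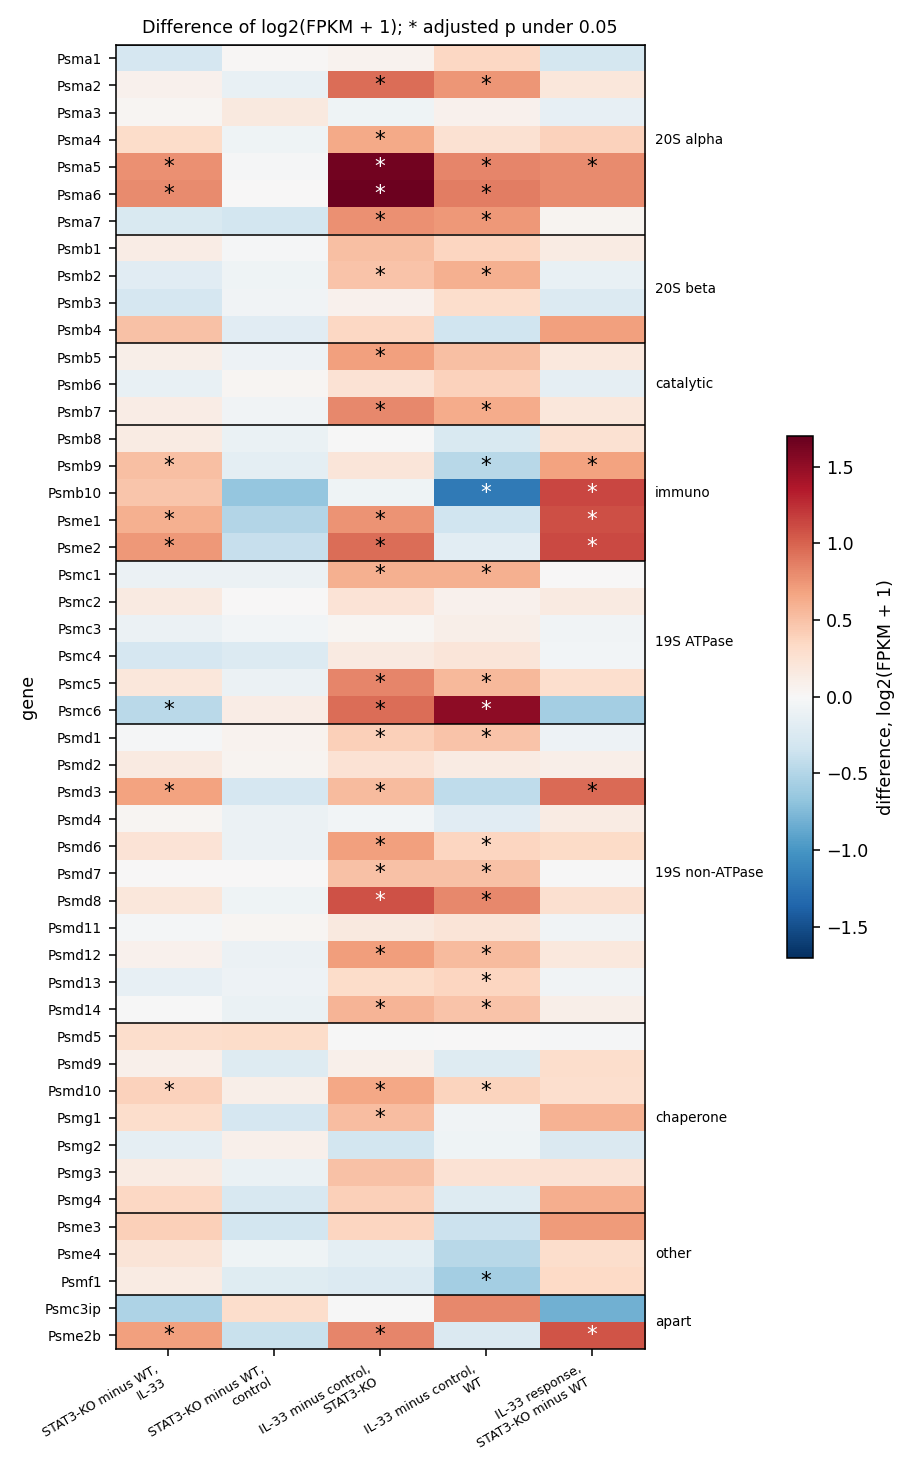
Differences on the log2(FPKM + 1) scale for the 48 tested genes (rows, grouped by role) in 5 comparisons (columns), red for positive and blue for negative values, with an asterisk where the adjusted p is under 0.05. The control column holds 0 asterisks, the columns of the IL-33 response hold 23 in STAT3-KO and 20 in WT, and 4 of the 5 immunoproteasome rows have one in the last column.

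Psmb9 (chr17:34181988-34187764, minus strand) and Psmb8 (chr17:34197721-34201454, plus strand) flank the peptide transporter gene Tap1 (chr17:34187553-34197225, plus strand) on GRCm38, and Psme1 (chr14:55578123-55581529, plus strand) and Psme2 (chr14:55587441-55591113, minus strand) are close neighbours. Psmb10 is at chr8:105935735-105938444, minus strand. The first bases of Psmb9 and Tap1 overlap on opposite strands and Psmb10 lies within the span of the antisense gene Gm16156; the strand setting of the counting is not given in the sources used here, so reads of such overlaps cannot be told apart. The sequences below are the 250 bases before the RefSeq transcript start (GRCm38.p6) of the 5 immunoproteasome genes and of Psmb5 and Psmb6, the constitutive counterparts of Psmb8 and Psmb9. The RefSeq starts of the 5 immunoproteasome genes lie inside the gene spans given above, and Psme2 is shown for the first of its 2 starts. The sequences read 5′ to 3′ on the strand of the gene, and capitals mark motif matches.
Psmb9: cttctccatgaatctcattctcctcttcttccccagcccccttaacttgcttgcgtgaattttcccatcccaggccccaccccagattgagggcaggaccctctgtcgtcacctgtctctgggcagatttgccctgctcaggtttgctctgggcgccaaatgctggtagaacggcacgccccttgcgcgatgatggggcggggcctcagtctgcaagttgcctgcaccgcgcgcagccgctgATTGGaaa
Psmb10: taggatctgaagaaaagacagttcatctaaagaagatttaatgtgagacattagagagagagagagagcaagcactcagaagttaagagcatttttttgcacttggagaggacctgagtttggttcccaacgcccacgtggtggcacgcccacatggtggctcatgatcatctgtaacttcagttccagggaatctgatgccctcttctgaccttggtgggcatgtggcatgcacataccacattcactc
Psme1: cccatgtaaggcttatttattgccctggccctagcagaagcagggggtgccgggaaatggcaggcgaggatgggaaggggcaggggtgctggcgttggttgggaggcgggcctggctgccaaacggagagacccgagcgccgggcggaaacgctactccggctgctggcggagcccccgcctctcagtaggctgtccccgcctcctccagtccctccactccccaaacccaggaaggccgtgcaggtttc
Psme2: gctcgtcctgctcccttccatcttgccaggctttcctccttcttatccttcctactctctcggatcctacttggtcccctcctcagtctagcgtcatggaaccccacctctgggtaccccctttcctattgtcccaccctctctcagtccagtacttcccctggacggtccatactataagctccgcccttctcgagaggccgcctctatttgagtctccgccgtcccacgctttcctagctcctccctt
Psmb8: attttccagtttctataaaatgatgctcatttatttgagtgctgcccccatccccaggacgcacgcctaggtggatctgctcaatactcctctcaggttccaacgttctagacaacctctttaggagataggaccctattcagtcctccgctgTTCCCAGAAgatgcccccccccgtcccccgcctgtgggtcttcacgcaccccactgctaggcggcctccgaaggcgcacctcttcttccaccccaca
Psmb5: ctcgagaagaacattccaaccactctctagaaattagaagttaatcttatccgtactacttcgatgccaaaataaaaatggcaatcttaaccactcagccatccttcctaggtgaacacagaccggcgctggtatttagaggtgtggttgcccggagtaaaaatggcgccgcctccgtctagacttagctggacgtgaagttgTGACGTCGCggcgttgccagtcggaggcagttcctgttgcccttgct
Psmb6: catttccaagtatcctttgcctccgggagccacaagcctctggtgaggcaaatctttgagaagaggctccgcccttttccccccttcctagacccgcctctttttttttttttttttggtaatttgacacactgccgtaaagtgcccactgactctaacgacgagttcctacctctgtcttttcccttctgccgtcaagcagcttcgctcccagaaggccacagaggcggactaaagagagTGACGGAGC
They lie at chr17:34187331-34187580 (minus strand), chr8:105938393-105938642 (minus strand), chr14:55578244-55578493 (plus strand), chr14:55591102-55591351 (minus strand), chr17:34197945-34198194 (plus strand), chr14:54617996-54618245 (minus strand) and chr11:70525107-70525356 (plus strand). Searched on both strands were TGACNNNGC (the core of the antioxidant response element, bound by NRF1 and NRF2), GAAA followed after 2 free bases by GAAA (an interferon-stimulated response element), TTCNNNGAA (a STAT motif) and CCAAT (bound by NF-Y). Psmb8 holds TTCCCAGAA, 97 to 89 bases before the start, Psmb9 holds ATTGG, the reverse complement of CCAAT, 8 to 4 bases before it, and Psmb10, Psme1 and Psme2 hold none of the 4 motifs in these windows. Psmb5 holds TGACGTCGC 47 to 39 bases before the start and Psmb6 TGACGGAGC 9 to 1 bases before it; each of these windows has at most 1 match, so no matches overlap. Of 45 promoters of 42 proteasome genes found in the table, 5 hold the antioxidant core, 3 the interferon element, 2 the STAT motif and 15 the CCAAT box, while 10.2%, 2.98%, 7.04% and 33.8% of all 32536 promoters hold them. A match is a description of letters and not a binding site.

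Psmb10 (MECL-1, a catalytic immunoproteasome subunit) had the largest fall of the 48 genes with IL-33 in WT cells. Its level was 59.7 and 41.98 FPKM in STAT3-KO with IL-33, 33.8 and 37.9 FPKM in WT with IL-33, 57.6 and 48.4 FPKM in STAT3-KO control and 83.1 and 84.9 FPKM in WT control cells. The WT IL-33 pair lies below every other library, and the WT control pair above every other. With IL-33 it fell in WT cells, to 0.427 of the control mean, a difference of -1.21 (SE 0.17, adjusted p = 0.00102), and in STAT3-KO cells the difference was -0.08 (SE 0.17, adjusted p = 0.733), with a 95% interval of -0.46 to 0.31. The responses differed by 1.13 (SE 0.24, adjusted p = 0.0168). Between genotypes the difference with IL-33 was 0.47 (SE 0.17, adjusted p = 0.0621), with groups that do not overlap, and in control medium -0.66 (SE 0.17, adjusted p = 0.186), STAT3-KO being lower in both libraries; neither passed the test. The response difference was not called without either replicate of WT IL-33, replicate 2 of STAT3-KO control or replicate 1 of WT control (adjusted p up to 0.0757). Without the filter the call was lost as well (adjusted p = 0.0591).

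Psmb9 (LMP2) had 62.9 and 47.9 FPKM in STAT3-KO with IL-33, 36.1 and 40.3 FPKM in WT with IL-33, 48.6 and 46.1 FPKM in STAT3-KO control and 52.98 and 53.9 FPKM in WT control cells. The WT IL-33 pair is again the lowest, and of the STAT3-KO IL-33 pair 1 library lies above all controls and 1 among them. With IL-33, Psmb9 was higher in STAT3-KO than in WT cells by 0.51 (SE 0.14, adjusted p = 0.0227), with a mean 1.45 times that of WT. In WT cells it fell with IL-33 by 0.48 on the log2 scale (adjusted p = 0.0282 by limma), which after median-of-ratios rescaling was -0.31 with an adjusted p of 0.131. In STAT3-KO cells the difference was 0.21 (SE 0.14, adjusted p = 0.236). The difference between the responses, 0.69 (SE 0.20, adjusted p = 0.0499), was just under the threshold. The response difference was not called in 7 of the 8 fits that left out 1 library, all but that without replicate 2 of STAT3-KO IL-33 (adjusted p up to 0.15). With a pseudocount of 0.1, without the filter, after rescaling to TPM, with the length trend removed or with a replicate block the call was lost as well (adjusted p up to 0.103). The fall in WT was not called without either replicate of WT IL-33 or either replicate of WT control (adjusted p up to 0.148). Without the filter, after median-of-ratios rescaling or with the length trend removed the call was lost as well (adjusted p up to 0.131). The genotype difference with IL-33 was not called without replicate 1 of STAT3-KO IL-33 or either replicate of WT IL-33 (adjusted p up to 0.128). Without the filter or with only the compared libraries the call was lost as well (adjusted p up to 0.0914).

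Psmb8 (LMP7) was listed far below Psmb9 and Psmb10. It had 5.78 and 4.55 FPKM in STAT3-KO with IL-33, 4.87 and 4.31 FPKM in WT with IL-33, 5.82 and 4.58 FPKM in STAT3-KO control and 4.38 and 7.34 FPKM in WT control cells. The groups overlap, and the highest value is that of replicate 2 of WT control. No comparison passed the test; the 95% interval of the genotype difference with IL-33 was -0.41 to 0.68 and that of the difference between responses -0.52 to 1.03, and both intervals hold the values of Psmb9.

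The 11S activator genes Psme1 and Psme2 were highest in STAT3-KO cells with IL-33. Psme2 (PA28 beta) had 129 and 96.6 FPKM in STAT3-KO with IL-33, 65.9 and 67.4 FPKM in WT with IL-33, 63.6 and 51.2 FPKM in STAT3-KO control and 74.97 and 75.5 FPKM in WT control cells. The STAT3-KO IL-33 pair lies above every other library. It rose with IL-33 in STAT3-KO cells by 0.96 (SE 0.15, adjusted p = 0.00126), a 1.96-fold higher mean, and in WT cells the difference was -0.17 (SE 0.15, adjusted p = 0.402). The responses differed by 1.13 (SE 0.22, adjusted p = 0.0124), and with IL-33 STAT3-KO cells were 1.69-fold higher than WT cells, a difference of 0.74 (SE 0.15, adjusted p = 0.00748). The response difference was not called without either replicate of WT IL-33 or replicate 2 of STAT3-KO control (adjusted p up to 0.0584). The genotype difference was not called without either replicate of WT IL-33 (adjusted p up to 0.0541).

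Psme1 (PA28 alpha) had 41.1 and 38.01 FPKM in STAT3-KO with IL-33, 28.2 and 23.4 FPKM in WT with IL-33, 24.1 and 21.8 FPKM in STAT3-KO control and 33.7 and 31.8 FPKM in WT control cells. The STAT3-KO IL-33 pair is the highest and the STAT3-KO controls lie below the WT controls without overlap. It rose with IL-33 in STAT3-KO cells by 0.76 (SE 0.13, adjusted p = 0.00166), while the difference in WT cells was -0.34 (SE 0.13, adjusted p = 0.0729). The responses differed by 1.10 (SE 0.18, adjusted p = 0.0074). With IL-33, STAT3-KO cells were higher than WT cells by 0.60 (SE 0.13, adjusted p = 0.00858); in control medium the difference was -0.50 (SE 0.13, adjusted p = 0.195). The genotype difference with IL-33 was not called without replicate 2 of WT IL-33 (adjusted p = 0.0643).

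Psme2b (chr11:48945354-48946190) is a near-identical copy of Psme2, with 789 of 794 aligned transcript bases identical (99.4%), so reads could be split between the pair and the level of either is uncertain. It had 109.6 and 74.8 FPKM in STAT3-KO with IL-33, 55.9 and 55.1 FPKM in WT with IL-33, 57.2 and 44.8 FPKM in STAT3-KO control and 63.4 and 68.6 FPKM in WT control cells, with the STAT3-KO IL-33 pair the highest as for Psme2, and its FPKM was 0.774 to 0.909 times that of Psme2 in each library. Its differences were 0.70 between genotypes with IL-33, 0.83 with IL-33 in STAT3-KO cells and 1.07 between the responses (adjusted p = 0.0203, 0.00611 and 0.0278). It is not independent of Psme2. The difference between responses of Psme2b was not called in 6 of the 8 fits that left out 1 library, all but those without replicate 2 of STAT3-KO IL-33 or replicate 1 of STAT3-KO control (adjusted p up to 0.104). Without the filter the call was lost as well (adjusted p = 0.0894). Its genotype difference was not called without replicate 1 of STAT3-KO IL-33 or either replicate of WT IL-33 (adjusted p up to 0.108). Without the filter or with only the compared libraries the call was lost as well (adjusted p up to 0.0746). Its rise was not called without replicate 2 of STAT3-KO control (adjusted p = 0.0505).

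**Figure D3:**
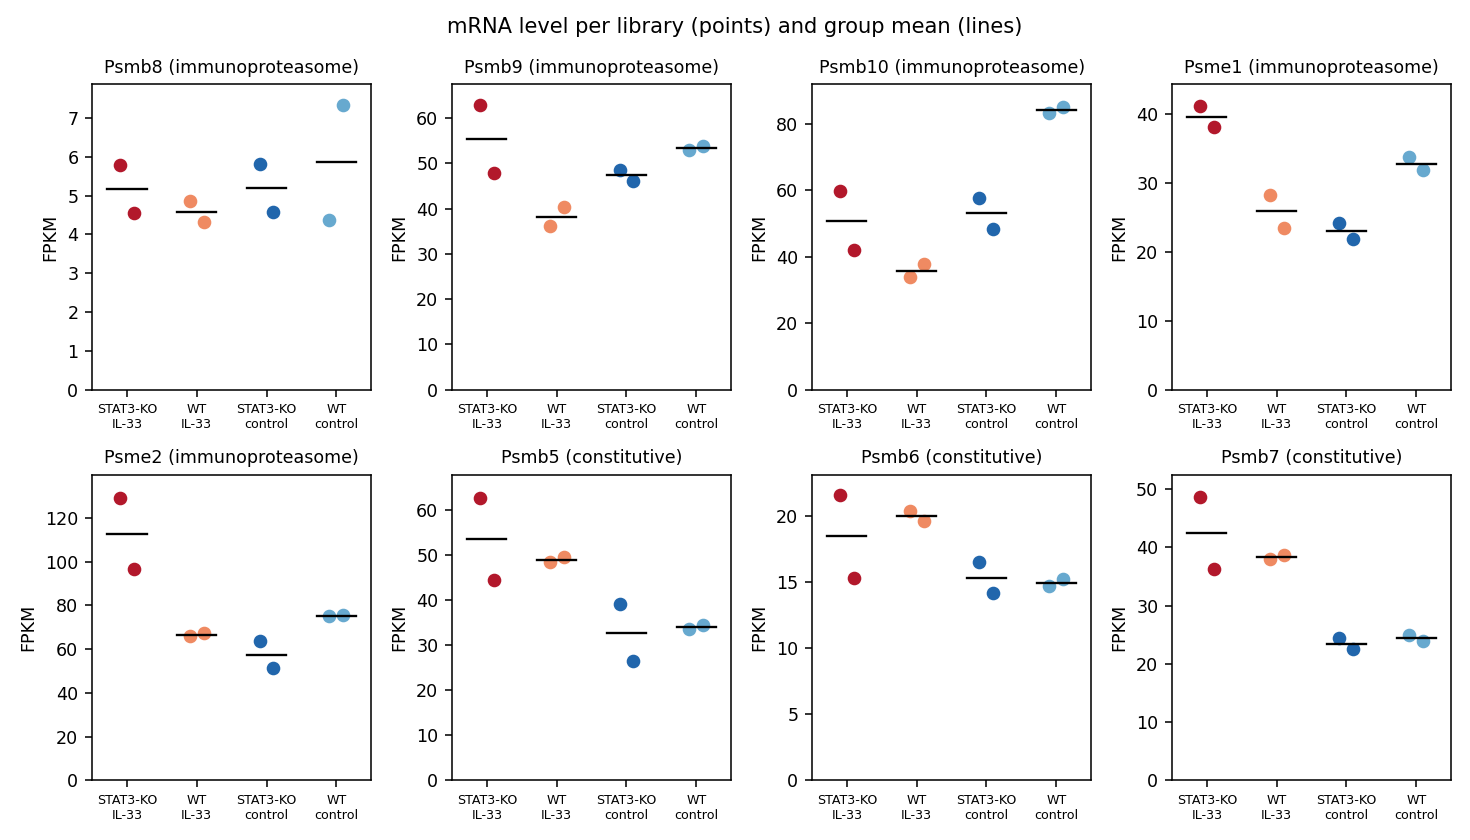
FPKM per library (points) and group mean (lines) of the 5 immunoproteasome genes and the 3 constitutive catalytic subunits, each on its own linear axis from 0, in STAT3-KO IL-33, WT IL-33, STAT3-KO control and WT control cells. Psmb10 and Psmb9 are lowest in WT cells with IL-33, and Psme1 and Psme2 are highest in STAT3-KO cells with IL-33.

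The constitutive counterparts did not differ between genotypes by the test. Psmb7, which carries the trypsin-like site, had 48.6 and 36.2 FPKM in STAT3-KO with IL-33, 37.97 and 38.7 FPKM in WT with IL-33, 24.4 and 22.5 FPKM in STAT3-KO control and 24.98 and 23.98 FPKM in WT control cells. The IL-33 libraries of both genotypes lie above all controls. It rose with IL-33 by 0.82 (SE 0.15, adjusted p = 0.00222) in STAT3-KO and 0.63 (SE 0.15, adjusted p = 0.0113) in WT cells. Psmb5, which carries the chymotrypsin-like site, had 62.7 and 44.4 FPKM in STAT3-KO with IL-33, 48.5 and 49.4 FPKM in WT with IL-33, 39.1 and 26.4 FPKM in STAT3-KO control and 33.6 and 34.5 FPKM in WT control cells. The IL-33 libraries again lie above the controls, with a wide gap between the STAT3-KO libraries of each condition. The difference was 0.70 (SE 0.20, adjusted p = 0.0202) in STAT3-KO and 0.51 (SE 0.20, adjusted p = 0.0804) in WT cells. Psmb6, which carries the caspase-like site, had 21.6 and 15.3 FPKM in STAT3-KO with IL-33, 20.4 and 19.6 FPKM in WT with IL-33, 16.5 and 14.1 FPKM in STAT3-KO control and 14.6 and 15.2 FPKM in WT control cells. Here the second STAT3-KO IL-33 library lies among the controls. The differences of Psmb6 were 0.24 (SE 0.17, adjusted p = 0.268) in STAT3-KO and 0.40 (SE 0.17, adjusted p = 0.101) in WT cells, and neither passed. The difference between responses had 95% intervals of -0.47 to 0.84 for Psmb5, -0.71 to 0.39 for Psmb6 and -0.28 to 0.66 for Psmb7. The rise of Psmb7 in WT was not called without either replicate of WT IL-33 or replicate 2 of WT control (adjusted p up to 0.0677). The rise of Psmb5 in STAT3-KO was not called without replicate 1 of STAT3-KO IL-33 or replicate 2 of STAT3-KO control (adjusted p up to 0.143). Without the filter or with only the compared libraries the call was lost as well (adjusted p up to 0.0791).

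The balance between each immunoproteasome subunit and the subunit it replaces was taken as a ratio of FPKM within a library, in which library scale cancels. Psmb10 over Psmb7 was 1.23 and 1.16 in STAT3-KO and 0.891 and 0.979 in WT libraries with IL-33, and 2.36 and 2.15 in STAT3-KO and 3.33 and 3.54 in WT controls. Both IL-33 pairs lie below both control pairs, and STAT3-KO lies above WT with IL-33 and below WT in control medium. Psmb9 over Psmb6 was 2.91 and 3.13 in STAT3-KO and 1.77 and 2.06 in WT libraries with IL-33, and 2.95 and 3.27 in STAT3-KO and 3.62 and 3.54 in WT controls. The STAT3-KO ratios of both conditions overlap, and the WT ratios are lower with IL-33. Psmb8 over Psmb5 was 0.0923 and 0.102 in STAT3-KO and 0.1 and 0.0872 in WT libraries with IL-33, and 0.149 and 0.173 in STAT3-KO and 0.13 and 0.213 in WT controls. These ratios are a description without a test, and their size, though not their order between libraries, depends on the gene length in the FPKM: the merged exons of Psmb8 span 3381 bases while its longest coding transcript has 1628, and with coding transcript lengths the mean Psmb10 over Psmb7 was 0.527 in STAT3-KO and 0.412 in WT cells with IL-33, against 0.996 in STAT3-KO and 1.51 in WT controls.

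**Figure D4:**
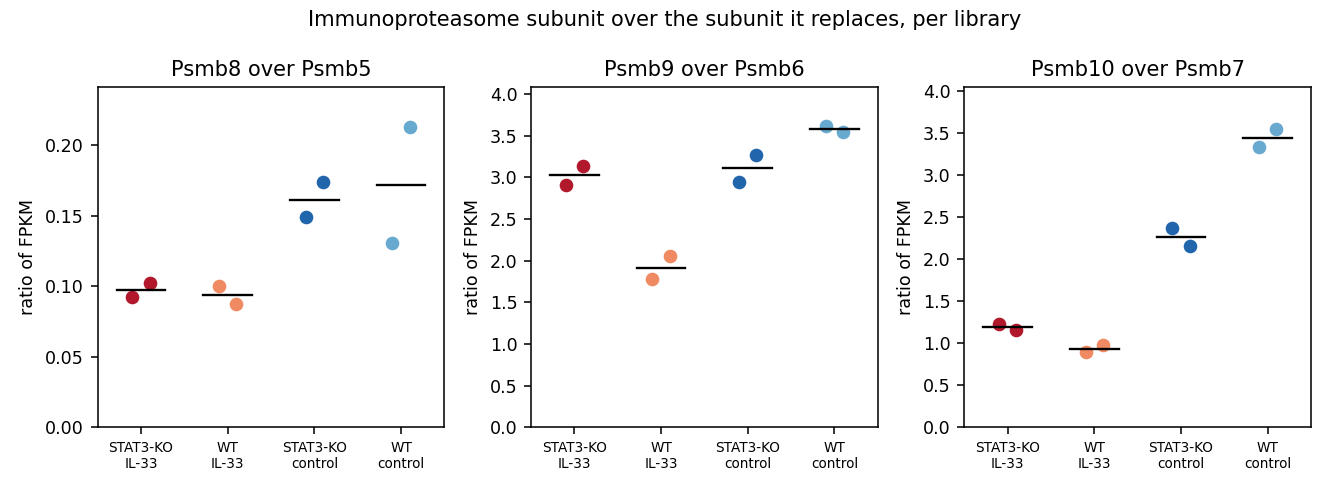
Ratio of FPKM of each catalytic immunoproteasome subunit to the constitutive subunit it replaces, per library (points) with the group mean (lines), on linear axes from 0. With IL-33 the Psmb9 over Psmb6 ratio is 2.91 and 3.13 in STAT3-KO cells and 1.77 and 2.06 in WT cells.

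In the alpha ring, the gated entrance of the core, 5 of 7 tested subunits rose with IL-33 in STAT3-KO and 4 of 7 in WT cells, beside 20.4% of all tested genes rising in STAT3-KO and 14.5% in WT. Psma6 and Psma5 were the largest rises in STAT3-KO cells. Psma5 had 189 and 139 FPKM in STAT3-KO with IL-33, 103 and 86.1 FPKM in WT with IL-33, 55.1 and 47.9 FPKM in STAT3-KO control and 53.01 and 51.7 FPKM in WT control cells. The STAT3-KO IL-33 libraries lie above the WT IL-33 libraries, which lie above all controls. Psma5 rose by 1.64 (SE 0.16, adjusted p = 9.32e-05) in STAT3-KO cells, 3.18-fold, and by 0.84 (SE 0.16, adjusted p = 0.00473) in WT cells, 1.81-fold, and the responses differed by 0.80 (SE 0.23, adjusted p = 0.0483). Psma6 had 147 and 111 FPKM in STAT3-KO with IL-33, 78.7 and 67.3 FPKM in WT with IL-33, 46.8 and 33.3 FPKM in STAT3-KO control and 41.00 and 37.95 FPKM in WT control cells, in the same order of groups. It rose by 1.67 in STAT3-KO and 0.87 in WT cells (adjusted p = 0.000193 and 0.00794), and the difference between responses, 0.80, did not pass (adjusted p = 0.0754). With IL-33, STAT3-KO cells were higher than WT cells by 0.77 for Psma5 and 0.80 for Psma6 (adjusted p = 0.00721 and 0.0122). The genotype difference of Psma5 was not called without replicate 2 of WT IL-33 (adjusted p = 0.0701). With only the compared libraries the call was lost as well (adjusted p = 0.0538). That of Psma6 was not called without replicate 1 of STAT3-KO IL-33 or replicate 2 of WT IL-33 (adjusted p up to 0.1). The rise of Psma6 in WT was not called without replicate 1 of WT IL-33 (adjusted p = 0.0702). The difference between the responses of Psma5 was not called in 7 of the 8 fits that left out 1 library, all but that without replicate 2 of STAT3-KO IL-33 (adjusted p up to 0.164). With a pseudocount of 0.1, without the filter or after rescaling to TPM the call was lost as well (adjusted p up to 0.121). Of the 4 structural beta subunits only Psmb2 rose, by 0.48 in STAT3-KO and 0.60 in WT cells (adjusted p = 0.0354 and 0.0202). The rise of Psmb2 in STAT3-KO was not called without replicate 1 of STAT3-KO IL-33, either replicate of WT IL-33 or replicate 2 of STAT3-KO control (adjusted p up to 0.207). Without the filter, after rescaling to TPM or with only the compared libraries the call was lost as well (adjusted p up to 0.0992). That in WT was not called without either replicate of WT IL-33 or replicate 2 of WT control (adjusted p up to 0.116). Without the filter the call was lost as well (adjusted p = 0.071).

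In the 19S cap, 3 of 6 ATPases and 7 of 11 non-ATPase subunits rose with IL-33 in each genotype, where 20.4% (STAT3-KO) and 14.5% (WT) of all tested genes rose. Psmc6, an ATPase of the base, had 135 and 130.4 FPKM in STAT3-KO with IL-33, 205 and 161 FPKM in WT with IL-33, 74.6 and 62.2 FPKM in STAT3-KO control and 58.4 and 67.1 FPKM in WT control cells. The WT IL-33 pair is the highest and the STAT3-KO IL-33 pair is next, above all controls. Psmc6 rose by 0.95 (SE 0.14, adjusted p = 0.000944) in STAT3-KO and 1.52 (SE 0.14, adjusted p = 0.000128) in WT cells, the largest rise of a member in WT cells. With IL-33 it was lower in STAT3-KO than in WT cells, with a difference of -0.45 (SE 0.14, adjusted p = 0.0419), and the difference between responses was -0.57 (SE 0.20, adjusted p = 0.0935). The genotype difference was not called in 5 of the 8 fits that left out 1 library, all but those without replicate 2 of WT IL-33 or either replicate of STAT3-KO control (adjusted p up to 0.242). Without the filter or with only the compared libraries the call was lost as well (adjusted p up to 0.103). Psmc5 rose by 0.83 in STAT3-KO and 0.55 in WT cells, and Psmc1 by 0.61 in STAT3-KO and 0.60 in WT cells. The adjusted p by limma was 0.000328 for Psmc5 in STAT3-KO and 0.00179 for Psmc1 in WT cells. Both genes also passed in the other genotype.

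Psmd8, a lid subunit, had 323 and 298 FPKM in STAT3-KO with IL-33, 273 and 267 FPKM in WT with IL-33, 148 and 144 FPKM in STAT3-KO control and 151 and 156 FPKM in WT control cells. Every IL-33 library lies above every control. It rose by 1.08 (SE 0.09, adjusted p = 3.15e-05) in STAT3-KO and 0.81 (SE 0.09, adjusted p = 0.000231) in WT cells. Psmd12, another lid subunit, rose by 0.71 in STAT3-KO and 0.54 in WT cells (adjusted p = 0.000775 and 0.00497). Psmd3, also of the lid, had 48.3 and 45.7 FPKM in STAT3-KO with IL-33, 28.5 and 29.2 FPKM in WT with IL-33, 27.3 and 37.5 FPKM in STAT3-KO control and 44.03 and 34.8 FPKM in WT control cells. The STAT3-KO IL-33 pair is the highest, and the STAT3-KO and WT control libraries overlap. Psmd3 rose with IL-33 in STAT3-KO cells by 0.54 (SE 0.17, adjusted p = 0.0265), and the difference in WT cells was -0.43 (SE 0.17, adjusted p = 0.0772). The responses differed by 0.97 (SE 0.24, adjusted p = 0.0293), and with IL-33 STAT3-KO cells were higher by 0.69 (SE 0.17, adjusted p = 0.0151). The difference between responses of Psmd3 was not called in 6 of the 8 fits that left out 1 library, all but those without replicate 2 of STAT3-KO control or replicate 2 of WT control (adjusted p up to 0.1). Without the filter the call was lost as well (adjusted p = 0.0813). Its genotype difference was not called without either replicate of STAT3-KO IL-33 or either replicate of WT IL-33 (adjusted p up to 0.0841). Its rise in STAT3-KO was not called without either replicate of STAT3-KO IL-33, replicate 2 of WT IL-33 or replicate 1 of STAT3-KO control (adjusted p up to 0.183). Without the filter, after rescaling to TPM or with only the compared libraries the call was lost as well (adjusted p up to 0.0751). The other 10 non-ATPase subunits differed by -0.14 (Psmd13) to 0.23 (Psmd6) between genotypes with IL-33, and none of them passed.

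Of 7 assembly chaperones, 2 rose with IL-33 in STAT3-KO and 1 in WT cells, near the 20.4% (STAT3-KO) and 14.5% (WT) of all tested genes that rose. Psmd10 (gankyrin), which helps to assemble the base, had 87.4 and 80.8 FPKM in STAT3-KO with IL-33, 66.2 and 61.3 FPKM in WT with IL-33, 51.2 and 54.3 FPKM in STAT3-KO control and 47.5 and 50.5 FPKM in WT control cells. Its IL-33 libraries lie above all controls and STAT3-KO lies above WT. It rose by 0.66 (SE 0.10, adjusted p = 0.00105) in STAT3-KO and 0.37 (SE 0.10, adjusted p = 0.0228) in WT cells, and was higher in STAT3-KO than in WT cells with IL-33 by 0.39 (SE 0.10, adjusted p = 0.0197). Psmg1, a chaperone of the alpha ring, rose in STAT3-KO cells by 0.53 (adjusted p = 0.0431). Psmf1 (PI31), known as an inhibitor of the core in vitro, had 9.99 and 11.01 FPKM in STAT3-KO with IL-33, 9.14 and 9.75 FPKM in WT with IL-33, 13.1 and 12.02 FPKM in STAT3-KO control and 16.2 and 13.2 FPKM in WT control cells, and fell with IL-33 in WT cells by 0.58 (adjusted p = 0.0167), the WT control libraries being the highest. The activators Psme3 and Psme4 did not pass in any comparison. The genotype difference of Psmd10 was not called without replicate 1 of STAT3-KO IL-33 or replicate 2 of WT IL-33 (adjusted p up to 0.106). After rescaling to TPM, with the length trend removed or with only the compared libraries the call was lost as well (adjusted p up to 0.0901). Its rise in WT was not called without either replicate of WT IL-33 or either replicate of WT control (adjusted p up to 0.111). The rise of Psmg1 was not called in 5 of the 8 fits that left out 1 library, all but those without replicate 2 of STAT3-KO IL-33 or either replicate of WT control (adjusted p up to 0.256). Without the filter, after rescaling to TPM, with the length trend removed or with only the compared libraries the call was lost as well (adjusted p up to 0.108). The fall of Psmf1 was not called without either replicate of WT IL-33 or replicate 1 of WT control (adjusted p up to 0.089). After median-of-ratios rescaling or with the length trend removed the call was lost as well (adjusted p up to 0.0654).

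Genes that build, feed or regulate the proteasome outside the symbol pattern were taken from a list of 25 symbols, some of which may name the same gene. Of these symbols 22 were in the table and 21 were tested. In STAT3-KO cells 4 rose and 4 fell with IL-33, in WT cells 5 rose and 2 fell, and between genotypes with IL-33 3 were higher and 2 lower in STAT3-KO. Of all tested genes 51%, 36.1% and 32.6% were called in these comparisons, so that calls in either direction were at or below the background. By direction, 14.5% of all tested genes rose and 21.6% fell in WT cells. There the rises of the list were above the background and the falls below it. Pomp, the maturation factor of the core, had 48.1 and 34.2 FPKM in STAT3-KO with IL-33, 26.1 and 28.7 FPKM in WT with IL-33, 18.2 and 14.8 FPKM in STAT3-KO control and 19.05 and 17.6 FPKM in WT control cells, and rose by 1.26 (SE 0.18, adjusted p = 0.000614) in STAT3-KO and 0.55 (SE 0.18, adjusted p = 0.0392) in WT cells. Its order of groups is that of Psma5 and Psma6. The rise of Pomp in WT was not called without either replicate of WT IL-33 or either replicate of WT control (adjusted p up to 0.18). Without the filter the call was lost as well (adjusted p = 0.0937). Txnl1, a thioredoxin-like protein of the cap, rose by 0.92 in STAT3-KO and 0.43 in WT cells (adjusted p = 0.000181 and 0.0117), and Uchl5, a deubiquitinase of the cap, by 0.71 in WT cells (adjusted p = 0.0116). The rise of Txnl1 in WT was not called without either replicate of WT IL-33 or replicate 2 of WT control (adjusted p up to 0.0689). The rise of Uchl5 was not called without either replicate of WT IL-33 or replicate 1 of WT control (adjusted p up to 0.0761). Nfe2l2 (NRF2), a regulator of antioxidant genes, had 10.6 and 13.5 FPKM in STAT3-KO with IL-33, 25.7 and 27.4 FPKM in WT with IL-33, 56.8 and 59.98 FPKM in STAT3-KO control and 65.4 and 66.2 FPKM in WT control cells. It fell with IL-33, with differences of -2.20 in STAT3-KO and -1.28 in WT cells (adjusted p = 6.60e-06 and 0.000192), and the responses differed by -0.92 (SE 0.18, adjusted p = 0.0141). This response difference was not called without replicate 2 of WT IL-33 or replicate 2 of STAT3-KO control (adjusted p up to 0.0624). Nfe2l1 (NRF1) differed by 0.16 (SE 0.16, adjusted p = 0.429) in STAT3-KO and 0.46 (SE 0.16, adjusted p = 0.0494) in WT cells. The difference of Nfe2l1 in WT was not called in 6 of the 8 fits that left out 1 library, all but those without either replicate of STAT3-KO IL-33 (adjusted p up to 0.216). With a pseudocount of 0.1, without the filter, after rescaling to TPM or with only the compared libraries the call was lost as well (adjusted p up to 0.102). Between genotypes with IL-33, Ngly1, which deglycosylates NRF1, was higher by 0.67 and AI314180 lower by 1.22 in STAT3-KO cells (adjusted p = 0.00802 and 0.0207). Nfe2l2 was the other gene of the list called lower there, with a difference of -1.09 (-1.25 to -0.93 with 1 library left out). The difference of Ngly1 was not called without replicate 2 of WT IL-33 (adjusted p = 0.0682). That of AI314180 was not called without either replicate of STAT3-KO IL-33 or either replicate of WT IL-33 (adjusted p up to 0.105). Without the filter the call was lost as well (adjusted p = 0.0731).

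Of 14 genes of MHC class I presentation, the pathway that uses immunoproteasome peptides, 4 rose and 6 fell with IL-33 in STAT3-KO cells, 2 rose and 7 fell in WT cells, and 5 were higher and 4 lower in STAT3-KO than in WT cells with IL-33. The difference between responses passed for 5, all positive. Of all tested genes 51%, 36.1% and 32.6% were called in the first 3 comparisons and 15.1% in the last, with 6.72% positive. Tap1, the transporter subunit beside Psmb9, had 95.9 and 104 FPKM in STAT3-KO with IL-33, 57.5 and 61.8 FPKM in WT with IL-33, 78.5 and 78.7 FPKM in STAT3-KO control and 93.7 and 93.3 FPKM in WT control cells. The WT IL-33 pair is the lowest and the STAT3-KO IL-33 pair the highest. It rose by 0.34 (SE 0.10, adjusted p = 0.0168) in STAT3-KO cells and the difference in WT cells was -0.64 (SE 0.10, adjusted p = 0.00143), a fall; the responses differed by 0.99 (SE 0.14, adjusted p = 0.00341). The rise of Tap1 in STAT3-KO was not called without replicate 2 of STAT3-KO IL-33 or either replicate of STAT3-KO control (adjusted p up to 0.0799). After rescaling to TPM the call was lost as well (adjusted p = 0.149). Tapbpl, a peptide editor, had 13.98 and 14.3 FPKM in STAT3-KO with IL-33, 9.23 and 6.66 FPKM in WT with IL-33, 21.6 and 21.9 FPKM in STAT3-KO control and 40.4 and 38.2 FPKM in WT control cells. The WT IL-33 pair is again the lowest, but the controls are the highest. It fell, with differences of -0.59 in STAT3-KO and -2.19 in WT cells (adjusted p = 0.0122 and 2.72e-05), with responses that differed by 1.59 (SE 0.22, adjusted p = 0.00322). The fall of Tapbpl in STAT3-KO was not called without replicate 1 of STAT3-KO IL-33 or either replicate of STAT3-KO control (adjusted p up to 0.0623). After median-of-ratios rescaling the call was lost as well (adjusted p = 0.0706). H2-T23, a non-classical class I gene, rose by 0.77 in STAT3-KO cells (adjusted p = 0.000419), with a difference of -0.12 in WT cells (adjusted p = 0.372). Nlrc5, a transactivator of class I genes, fell with IL-33 in STAT3-KO cells by 0.65 (adjusted p = 0.0207). The fall of Nlrc5 was not called without either replicate of STAT3-KO IL-33 or either replicate of STAT3-KO control (adjusted p up to 0.0844). Without the filter, after median-of-ratios rescaling or with the length trend removed the call was lost as well (adjusted p up to 0.331). H2-K1, a classical class I heavy chain, fell, with differences of -0.31 in STAT3-KO and -0.81 in WT cells (adjusted p = 0.0134 and 0.000183), while the chaperones Calr and Canx rose by 0.89 and 0.76 in STAT3-KO and by 1.09 and 1.11 in WT cells (adjusted p = 0.000217, 0.00063, 0.000116 and 0.000144). The fall of H2-K1 in STAT3-KO was not called without replicate 2 of STAT3-KO IL-33 or either replicate of STAT3-KO control (adjusted p up to 0.0747). Without the filter or after median-of-ratios rescaling the call was lost as well (adjusted p up to 0.48).

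Of 11 regulators of interferon responses, 0 rose and 4 fell with IL-33 in STAT3-KO cells (limma, at an unadjusted p under 0.05 0 higher and 5 lower), 1 rose and 6 fell in WT cells, and the difference between responses was positive for 3 and negative for 2. Of all tested genes 20.4% rose and 30.6% fell in STAT3-KO, 14.5% rose and 21.6% fell in WT, and the difference was positive for 6.72% and negative for 8.43%. Between genotypes with IL-33, 3 of the 11 were higher and 4 lower in STAT3-KO, where 16.3% of all tested genes were higher and 16.4% lower. Irf1, a transcription factor induced by interferon gamma, had 40.6 and 54.7 FPKM in STAT3-KO with IL-33, 34.1 and 32.8 FPKM in WT with IL-33, 54.8 and 59.7 FPKM in STAT3-KO control and 84.9 and 93.6 FPKM in WT control cells. The WT IL-33 pair is the lowest and the WT control pair the highest. The difference of Irf1 was -0.27 (SE 0.15, adjusted p = 0.149) in STAT3-KO and -1.39 (SE 0.15, adjusted p = 0.000222) in WT cells, and the responses differed by 1.12 (SE 0.21, adjusted p = 0.0106). The response difference of Irf1 was not called without replicate 2 of WT IL-33 (adjusted p = 0.0542). Irf9 fell with IL-33 in WT cells, with a difference of -1.53 (-1.62 to -1.44 with 1 library left out). Its responses differed by 1.28 (1.18 to 1.37 with 1 library left out). Irf9 was also the 1 gene of this list called between genotypes in control medium, lower in STAT3-KO by 0.75 (adjusted p = 0.042). This difference was not called in any of the 8 fits that left out 1 library (adjusted p up to 0.273). With a pseudocount of 0.1, after rescaling to TPM, with a replicate block or with only the compared libraries the call was lost as well (adjusted p up to 0.216). The responses also differed, with a negative sign, for Ifngr1, a receptor chain for interferon gamma, and the kinase Jak1. Ifngr1 fell with IL-33, with differences of -2.67 in STAT3-KO and -1.25 in WT cells (adjusted p = 6.22e-07 and 3.57e-05), and Jak1 by 1.77 in STAT3-KO cells (adjusted p = 4.20e-05), with a difference of 0.05 in WT cells (adjusted p = 0.809). Stat2 fell, with differences of -1.48 in STAT3-KO and -0.88 in WT cells (adjusted p = 0.000419 and 0.00858). Among the 4 lower genes between genotypes with IL-33 were Jak1, Ifngr1 and Stat2, with differences of -1.68, -1.32 and -0.89. With 1 library left out these were -1.80 to -1.56, -1.42 to -1.22 and -1.02 to -0.76. The fall of Stat2 in WT was not called without replicate 2 of WT IL-33 (adjusted p = 0.0696).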

How the data were processed

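RNA was measured in 8 libraries, 2 for each of 4 groups. The authors deposited 1 FPKM value per gene and library, made with Bowtie2 and RSEM on GRCm38, per the submitters' processing notes; versions, annotation and strand are not given in the sources used here. Depth was read from the steps of low FPKM values times the merged exon length of GENCODE M21, of which 93.4% to 94.6% were within 0.02 of a whole number of reads (values up to 100 reads). Limits from depth cover counting error only.

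The values were tested on log2(FPKM + 1) with limma 3.58.1 in R 4.3.3 (eBayes with trend, 1 mean per group, all 8 libraries) for 11877 genes with at least 1 FPKM in at least 2 libraries, two-sided, with Benjamini-Hochberg adjustment over all tested genes and a threshold of 0.05. Fold changes in FPKM are ratios of group means, and differences on the log scale understate changes of low genes. The members and lists were chosen with earlier results of these data known. Named were the 5 immunoproteasome genes, their 3 counterparts, up to 2 called members per role with the largest difference and any that moved against their role, up to 3 called genes of smallest p per related list, and Stat3; Irf1, Nlrc5 and Nfe2l1 were named after their values were seen, and 1 gene that the rule names is not reported here. The procedure was run on data simulated from the WT control means with 200 changed genes. Far more genes were called in the comparisons with IL-33, so the simulation does not show how the test performs on these data. The labels do not say whether libraries of the same replicate number are matched. Their deviations had correlations of -0.06 to 0.04 over all tested genes, which cannot decide it for single genes. Promoters came from RefSeq.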

Additional observations from a re-analysis of the deposited data

Results flagged for a closer look

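The IL-33 response differed between the genotypes, by the test of the difference itself (limma, STAT3-KO minus WT on the log2(FPKM + 1) scale), for 7 of 48 proteasome genes, all positive. This is 14.6% of them, where 15.1% of all tested genes were called and 6.72% were positive. The difference was 1.13 for Psmb10, 1.13 for Psme2, 1.10 for Psme1, 1.07 for Psme2b, 0.97 for Psmd3, 0.80 for Psma5 and 0.69 for Psmb9. Psme2b and Psme2 are near-identical and count as 1 observation. Of the 8 fits that left out a library, the call was lost in 7 for Psma5 and Psmb9, in 6 for Psmd3 and Psme2b, in 4 for Psmb10, in 3 for Psme2 and in 0 for Psme1.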

How the results depend on the processing

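Alternatives were a pseudocount of 0.1, no filter on low values, median-of-ratios rescaling, rescaling to TPM, removal of the gene-length trend, a replicate block, a fit of only the libraries compared, and leaving out each library; the lone library left in a group is then assumed to vary like the other groups. With only the libraries compared, 4 members were higher and 0 lower in STAT3-KO than in WT cells with IL-33 (main values 8 and 1), and 0 genes differed in control medium (main value 55, and 34 with a pseudocount of 0.1). The lower members in that first comparison numbered 0 without a filter, 3 after rescaling to TPM and 4 with the length trend removed. In WT cells 1 member fell with IL-33 under median-of-ratios rescaling and 1 with the length trend removed, in place of 3. Without a filter, 3 members had a larger response in STAT3-KO in place of 7, being Psme1, Psme2 and Psma8, which was not tested otherwise (difference of IL-33 responses: all genes called 1149 in place of 1799). The sign turned for Psmb5 between genotypes with IL-33 (-0.0292 with the length trend removed), and for the IL-33 difference in STAT3-KO of Psmb10 (0.14, median-of-ratios) and Psmb8 (0.18, median-of-ratios, and 0.0251, length trend removed); none of these was called in the main analysis.

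Leaving out 1 library gave, for STAT3-KO against WT with IL-33, 0 to 9 higher and 0 to 3 lower members and 2117 to 4013 genes in all, with differences of -0.14 to 0.35 for Psmb5, -0.36 to 0.11 for Psmb6, -0.0811 to 0.33 for Psmb7 and -0.00946 to 0.28 for Psmb8. In control medium it gave 1 to 35 genes, with -0.35 to 0.20 for Psmb5, -0.0764 to 0.13 for Psmb6 and -0.43 to 0.20 for Psmb8. For IL-33 it gave in STAT3-KO cells -0.32 to 0.17 for Psmb10 and -0.15 to 0.14 for Psmb8, and in WT cells 7 to 19 higher and 1 to 3 lower members, 2550.0 to 4301 genes and -0.58 to 0.0536 for Psmb8. For the difference between responses it gave 1 to 6 higher and 0 to 1 lower members, 764 to 1993 genes, -0.0890 to 0.46 for Psmb5, -0.39 to 0.0783 for Psmb6, -0.0191 to 0.40 for Psmb7 and -0.0623 to 0.57 for Psmb8.

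The replicate block used the replicate numbers, which the labels do not describe as pairs. It gave 8 higher and 1 lower members between genotypes with IL-33 and 0 in control medium. With IL-33, 23 members rose in STAT3-KO, and 18 rose and 4 fell in WT. The response was larger in STAT3-KO for 8. Of the values of single genes, 911 kept direction and side of the threshold under whole-fit alternatives, 92 fell short of it, 8 newly passed it and 4 changed sign. The causes were not tested.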
